A study of Homo sapiens with 4 samples.

Results

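The genes described here encode the subunits, activators and assembly factors of the proteasome, and were taken from a gene expression table of the human fibrosarcoma line HT-1080. A gene was included if its symbol was PSM followed by a letter from A to G and a number. Of 20323 genes in the table, 48 symbols met this, in 52 rows, and the row with the highest mean TPM (transcript abundance scaled by transcript length and library total) was used where a symbol was repeated. RNA-seq of polyadenylated RNA was available for 1 library of cells with genotype sgPKA, 1 library with genotype sgALKBH5 and 2 libraries with genotype sgNC (control 1 and control 2), which are treated here as carrying a control guide RNA. Protein kinase A (PKA) is the cAMP-dependent kinase, and ALKBH5 removes N6-methyladenosine from RNA. The series title places both upstream of GPX4, an enzyme that protects cells from ferroptosis. All 4 libraries came from the same cell line in the same culture medium, and the labels list no further treatment. The labels do not say which PKA gene was targeted, whether a knockout line was a clone or a pool, or whether the controls were separate cultures, so p-values measure only the spread between these libraries, which may be technical.

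Total expected counts were 14050867 in sgPKA, 25937347 in sgALKBH5, 18469299 in control 1 and 18522402 in control 2. The catalytic PKA gene PRKACA stood at 10.6 TPM in sgPKA and 70.9 TPM in sgALKBH5, against 60.6 and 70.1 TPM in the controls. ALKBH5 stood at 67.1 TPM in sgPKA and 37.5 TPM in sgALKBH5, against 80.2 and 67.6 TPM in the controls. The mesenchymal marker VIM was between 6730 and 7853 TPM in all 4 libraries, and 6 of 7 mesenchymal markers passed the filter on low counts, with THY1 at or near 0. The leukocyte marker PTPRC was at 0.043 TPM or less in every library, and 2 of 9 leukocyte markers, CD68 and LYZ, passed the filter. Of 5 epithelial markers, KRT8 and KRT18 passed the filter, with means of 459 and 473 TPM over the 4 libraries, and EPCAM was listed at 0 in all. The matrix gene FN1 was at 1030 TPM in control 1 and 118 TPM in control 2, while COL6A1 was at 115 TPM in control 1 and 115.5 TPM in control 2.

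The proteasome degrades proteins tagged with ubiquitin. Its 20S core is a barrel of alpha rings, which gate entry, and beta rings, which hold the catalytic subunits PSMB6 (beta1), PSMB7 (beta2) and PSMB5 (beta5). The 19S particle caps the barrel, recognises and unfolds substrates, and is built of ATPases (the PSMC genes) and non-ATPases (the PSMD genes). In leukocytes, and in other cells after interferon-gamma, the catalytic subunits are replaced by PSMB9 (beta1i), PSMB10 (beta2i) and PSMB8 (beta5i), which gives the immunoproteasome. Interferon-gamma also induces PSME1 and PSME2, the subunits of the PA28 activator, and peptides made by these particles are loaded onto MHC class I molecules.

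The sequence just around the annotated start of these 5 interferon-inducible genes is shown because all 5 were highest in the same library. Whether these sequences have a part in that was not tested. Each stretch covers 100 bases before the RefSeq start and the first 20 transcribed bases, on the strand of the gene, from RefSeq on GRCh38.p14. PSMB8 (chr6:32844660-32844779, minus strand) and PSMB9 (chr6:32854092-32854211, plus strand) lie in the MHC region, PSMB10 (chr16:67936831-67936950, minus strand) lies apart, and PSME1 (chr14:24136094-24136213, plus strand) and PSME2 (chr14:24146591-24146710, minus strand) are neighbours. Capitals mark the core letters of the interferon-stimulated response element, GAAANNGAAA, or their reverse complement, which is how they appear in PSME1.

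PSMB8: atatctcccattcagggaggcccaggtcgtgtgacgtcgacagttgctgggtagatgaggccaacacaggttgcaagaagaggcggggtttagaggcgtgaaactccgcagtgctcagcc
PSMB9: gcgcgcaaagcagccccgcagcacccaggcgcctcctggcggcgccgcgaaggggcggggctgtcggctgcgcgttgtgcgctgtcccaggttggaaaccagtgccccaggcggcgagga
PSMB10: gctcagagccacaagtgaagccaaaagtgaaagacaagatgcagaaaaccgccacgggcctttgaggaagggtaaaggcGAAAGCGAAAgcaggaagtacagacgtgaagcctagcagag
PSME1: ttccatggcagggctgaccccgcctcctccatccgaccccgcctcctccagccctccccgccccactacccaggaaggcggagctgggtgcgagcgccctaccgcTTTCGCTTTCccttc
PSME2: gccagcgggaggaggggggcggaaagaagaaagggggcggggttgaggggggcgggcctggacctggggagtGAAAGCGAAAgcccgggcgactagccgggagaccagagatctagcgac

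The same letters were searched on both strands of the whole RefSeq promoter window, 250 bases before to 50 bases after the start, which was available for 42 of the 48 members. The response element core was present in 3 of the 5 interferon-inducible genes (PSMB10, PSME1 and PSME2) and in 3 of 37 other members (PSMA4, PSMB4 and PSMG4), and in 3.57% of 35116 windows of all genes. In PSMB10 and PSME2 it began 21 and 28 bases before the start, and in PSME1 it lay 5 bases into the transcript. The gamma-activated sequence, TTCNNNGAA, was in 0 of these 5 genes, in 5 of the 37 others and in 7.66% of all windows. The antioxidant response element core, TGANNNNGC, was in 4 of the 5, in 22 of the 37 and in 41.8% of all windows. The NF-Y box, CCAAT, was in 1 of the 5, in 18 of the 37 and in 34.6% of all windows. The response element core overlapped no other of these motifs in any member's window. PSMB8 and PSMB9 have further annotated starts outside the window used here. These 2 genes, without the response element core in the window, had the smallest and the largest difference of the 5 in sgALKBH5. Their log2 fold changes against the controls were 0.23 and 1.09. The part of any motif in the differences was not tested.

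In GRCh38.p14, PSMB8 (chromosome 6, 32840717 to 32844679) and PSMB9 (32854192 to 32859851) lie 9512 bases apart. The peptide transporter gene TAP1 lies between them, with 487 bases between it and PSMB9. PSMB8 overlaps the antisense gene PSMB8-AS1, and no source used here states whether strand was used in counting, so reads of the pair cannot be told apart. PSMB10 (ENSG00000205220) lies on chromosome 16 from 67934506 to 67936850. PSME1 (chromosome 14, 24136194 to 24138962) and PSME2 (24143365 to 24146610) lie 4402 bases apart, and PSME2 has 6 pseudogenes in RefSeq, which could share reads with it.

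Of the 48 members, 46 passed the filter on low counts. PSMB11, the catalytic subunit of the thymus-specific proteasome, had 0 counts in all 4 libraries. For 0 counts the upper 95% Poisson limit is about 3 counts. That is 0.201 CPM (counts scaled to the library total) in sgPKA, 0.118 in sgALKBH5, and 0.165 and 0.167 in the controls. PSMA8, an alpha subunit of the proteasome of germ cells, had 1 count, in control 2, and 0 in the others. In TPM, which is per length and can be set side by side between genes, the mean level of the 46 over the 4 libraries ran from 18.8 TPM for PSME4, which encodes the PA200 activator, to 917 TPM for PSMD2, a scaffold of the 19S base that binds ubiquitin-like domains. Their summed level was 8860 TPM in sgPKA and 9746 TPM in sgALKBH5, against 9458 and 9292 TPM in the controls.

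The 3 immunoproteasome catalytic genes were below their constitutive counterparts in every library. PSMB8 was at 70.0 TPM in sgPKA and 88.8 TPM in sgALKBH5, against 76.2 and 68.3 TPM in the controls. Its constitutive counterpart PSMB5 was at 317 TPM in sgPKA and 389 TPM in sgALKBH5, against 412 and 400.5 TPM in the controls. The lowest PSMB5 value thus exceeded the highest PSMB8 value in these libraries. PSMB9 was at 21.2 TPM in sgPKA and 58.1 TPM in sgALKBH5, against 33.5 and 18.96 TPM in the controls. Its counterpart PSMB6 was at 204 TPM in sgPKA and 209 TPM in sgALKBH5, against 211 and 214 TPM in the controls. In TPM, PSMB6 varied little between the libraries, and PSMB9 was highest in sgALKBH5 and lowest in control 2. On normalised counts, given below, PSMB9 was lowest in sgPKA, and PSMB6 was below both controls in that library. PSMB10 was at 24.2 TPM in sgPKA and 37.2 TPM in sgALKBH5, against 28.2 and 18.5 TPM in the controls. Its counterpart PSMB7 was at 403 TPM in sgPKA and 438 TPM in sgALKBH5, against 462 and 489.6 TPM in the controls.

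Levels of several genes are printed in deposited TPM. Unless TPM is named, positions against the controls and fold changes of 1 gene were taken on CPM normalised by trimmed means (TMM). On this scale the median difference of all 13061 genes tested from the control mean was -0.01 in sgPKA and 0.00 in sgALKBH5, in log2(CPM + 1). On log2(TPM + 1) as deposited it was 0.12 and 0.05, so a TPM in sgPKA runs above a normalised count, and TPM values of sgPKA are to be read against that shift. In a bulk library, fewer cells that express a gene and less of its RNA per cell cannot be told apart.

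**Figure D1:**
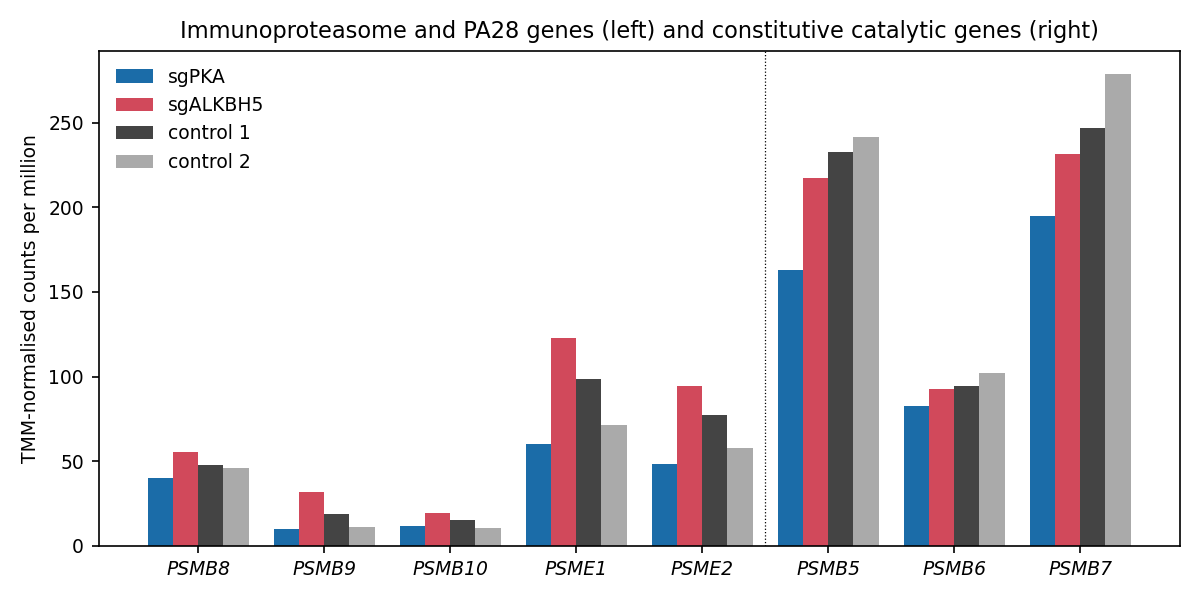
TMM-normalised CPM (vertical axis, linear from 0) of the immunoproteasome and PA28 genes (left of the dotted line) and of the constitutive catalytic genes (right) in sgPKA, sgALKBH5, control 1 and control 2, 1 bar per library. Values are not per length and compare libraries within a gene: sgALKBH5 is the highest of the 4 for each of the 5 genes on the left, and sgPKA the lowest for each of the 3 genes on the right.

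All 5 interferon-inducible members were highest in sgALKBH5. They thus lay above both controls there, as did 33.5% of all genes tested. PSMB9 was at 31.7 CPM in sgALKBH5, against 18.5 and 11.2 CPM in the controls. The exact 95% Poisson intervals, which cover counting error only, were 29.5 to 33.9 CPM in sgALKBH5, 16.6 to 20.6 CPM in control 1 and 9.68 to 12.8 CPM in control 2. The sgALKBH5 value thus lay outside counting error of both controls, and the controls lay outside counting error of each other. The log2 fold change against the controls was 1.09 ± 0.39 (SE), a ratio of 2.13, and edgeR's quasi-likelihood test gave a Benjamini-Hochberg adjusted p of 0.998. PSME1 was at 123 CPM in sgALKBH5, against 98.8 and 71.6 CPM in the controls, a log2 fold change of 0.53 ± 0.28 (SE). PSME2 was at 94.6 CPM in sgALKBH5, against 77.2 and 57.9 CPM in the controls, a log2 fold change of 0.49 ± 0.27 (SE). For both PA28 genes the distance between the controls was larger than the distance from sgALKBH5 to control 1. PSMB10 was at 19.6 CPM in sgALKBH5, against 15.0 and 10.5 CPM in the controls, a log2 fold change of 0.62 ± 0.35 (SE). In log2(CPM + 1), control 2 minus control 1 was -0.48 for PSMB10, larger in size than the 0.36 from control 1 to sgALKBH5. PSMB8 was at 55.2 CPM in sgALKBH5, against 47.8 and 46.2 CPM in the controls, a log2 fold change of 0.23 ± 0.21 (SE). Of the 5, PSMB8 had the smallest difference and the controls closest to each other.

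The summed level of the 9 leukocyte markers, nearly all of it CD68, was 357 TPM in sgPKA and 223 TPM in sgALKBH5, against 259 and 446 TPM in the controls, and thus lowest where these genes were highest. The summed level of the 7 mesenchymal markers was 8295 TPM in sgPKA and 9456 TPM in sgALKBH5, against 8232 and 7319 TPM in the controls, and was highest in sgALKBH5 too. VIM made up most of this sum, at 7839 TPM in sgPKA and 7853 TPM in sgALKBH5. On normalised counts, 3 of the 6 that passed the filter lay above both controls in sgALKBH5. S100A4 lay below both, and TGFBI and FN1 between. Among all genes tested 33.5% lay above and 33.4% below both controls in sgALKBH5. The part of either marker list in these differences was not tested.

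The same genes were at the low end in sgPKA, together with control 2. PSMB9 was at 9.57 CPM in sgPKA, against the 18.5 and 11.2 CPM of the controls, and its 95% interval of 8.06 to 11.3 CPM overlapped that of control 2. The log2 fold change against the controls was -0.63 ± 0.42 (SE), and the adjusted p of edgeR's test was 0.578. PSME1 was at 59.9 CPM in sgPKA and PSME2 at 48.2 CPM, each below both controls, with log2 fold changes of -0.51 (standard error 0.30) and -0.49 (standard error 0.29). PSMB8 was at 40.2 CPM in sgPKA, lower than either control, at a log2 fold change of -0.23 ± 0.22 (SE). PSMB10 was at 11.6 CPM in sgPKA, between the controls, with a log2 fold change of -0.13 ± 0.36 (SE). On TPM as deposited only PSME1 of these 5 lay below both controls in sgPKA, and PSMB10 turned to a difference of 0.08. With the median of all genes subtracted from TPM, 4 of the 5 lay below both.

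No gene passed the test in any comparison. With all 4 libraries in 1 fit, the spread came from the 2 controls alone, and edgeR called 0 of 13061 genes (0.0%) for sgPKA against the controls, for sgALKBH5 against the controls and for sgPKA against sgALKBH5. At an unadjusted p under 0.05 it gave 9.07%, 2.83% and 11.6% of genes, and 0, 1 (PSMB9) and 5 (PSMB9, PSME1, PSME2, PSMA7 and PSMC3) of the 46 members. The Wald test of DESeq2 called 114, 33 and 311 genes in these comparisons, and limma 0, and neither called a member. Counts of members outside both controls are therefore given as a description, beside the share of all genes tested.

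The controls also differed from each other, by an unequal part of the difference between the knockouts. In log2(CPM + 1), control 2 minus control 1 was -0.05 for PSMB8, where sgPKA minus sgALKBH5 was -0.45. For PSMB10 these differences were -0.48 and -0.70. PSMB8 and PSMB10 were the extremes of the 5 interferon-inducible members in this respect. Control 2 was lower than control 1 for all 5 interferon-inducible members, by a log2 difference between -0.05 for PSMB8 and -0.68 for PSMB9, with a median of -0.46. Among the other 41 members it was lower for 15, with a median difference of 0.05, and over all genes tested it was lower for 51.4%. By 2-fold or more the controls differed in 0 of the 46 members and in 7.31% of all genes tested. The order sgALKBH5, control 1, control 2, sgPKA from high to low held for 4 of the 5 (PSMB10 was the exception, with sgPKA above control 2), for 4 of the other 41 members and for 9.74% of all genes tested. No member was at least 2-fold from both controls in either knockout, while over all genes tested 0.582% were above and 2.02% below by that measure in sgPKA, and 1.36% above and 0.559% below in sgALKBH5. PSMB9 in sgALKBH5 was the nearest, with log2 differences of 0.74 from control 1 and 1.42 from control 2.

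Between the knockouts, all 5 interferon-inducible members were lower in sgPKA than in sgALKBH5. PSMB9 was lower by a log2 fold change of -1.73 ± 0.48 (SE), a ratio of 0.302, and the adjusted p of edgeR's test was 0.424. The ratio was 0.488 for PSME1, 0.510 for PSME2, 0.595 for PSMB10 and 0.728 for PSMB8. PSMB9 and PSME1 were at least 2-fold lower in sgPKA, against 0 of the other 41 members and 8.9% of all genes tested. None of the 46 was at least 2-fold higher in sgPKA, against 4.81% of all genes tested. Of the other 41, 31 were lower in sgPKA to any extent, against 50.8% of all genes tested.

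**Figure D2:**
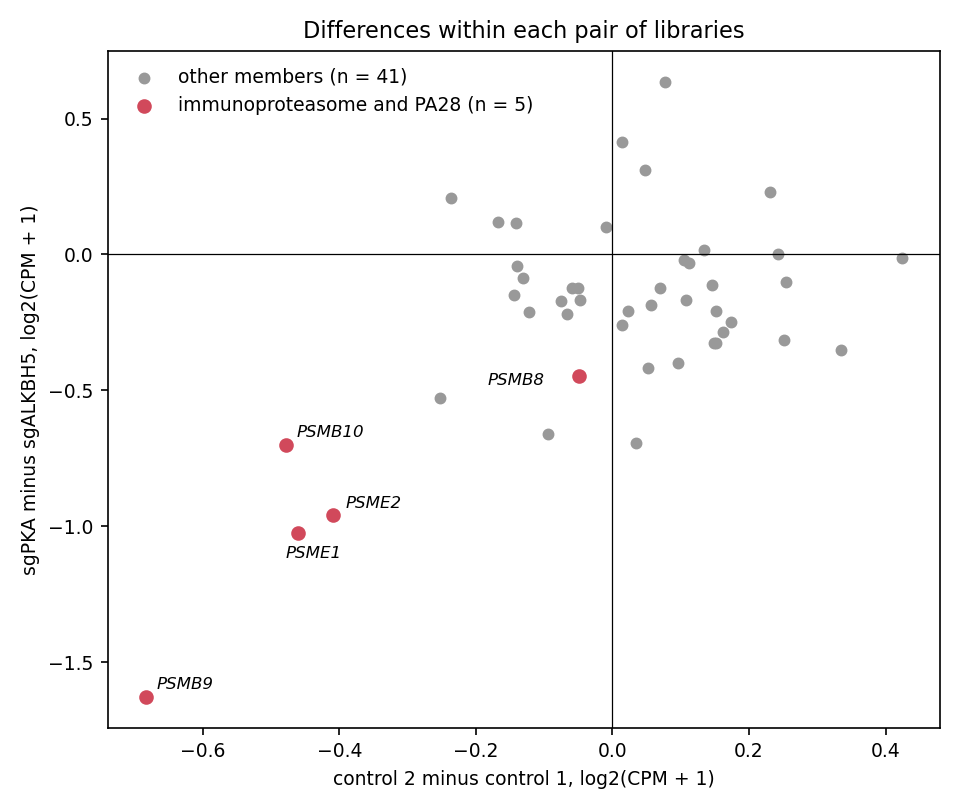
Difference between the knockouts (sgPKA minus sgALKBH5, vertical axis) against the difference between the controls (control 2 minus control 1, horizontal axis), both in log2(CPM + 1), with 1 point for each of the 46 members. PSMB9 lies farthest to the lower left, at -1.63 and -0.68, with PSME1, PSME2 and PSMB10 next to each other above it, while PSMB8 is near 0 between the controls.

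Taken per catalytic site, the immunoproteasome transcript was the minor one in every library. PSMB9 made up 9.45% of the TPM of PSMB9 and PSMB6 in sgPKA and 21.7% in sgALKBH5, against 13.7% and 8.15% in the controls (mean 10.9% ± 3.93, SD, n = 2). The sgPKA share lay between the controls and the sgALKBH5 share above both. PSMB10 made up 5.65% of the TPM of PSMB10 and PSMB7 in sgPKA and 7.83% in sgALKBH5, against 5.76% and 3.64% in the controls (4.70% ± 1.50). Here too sgPKA lay between the controls. PSMB8 made up 18.1% of the TPM of PSMB8 and PSMB5 in sgPKA and 18.6% in sgALKBH5, against 15.6% and 14.6% in the controls (15.1% ± 0.743). Both knockouts were above both controls for this pair. In sgPKA the numerator PSMB8 was at 70.0 TPM, between the controls, while the denominator PSMB5 was below both. On expected counts, the share of PSMB8 was 19.8% in sgPKA, with a Wilson 95% interval of 18.4% to 21.3%, and 17.0% in control 1, with an interval of 16.02% to 18.1%, and these intervals too cover counting error only. Over the 3 pairs together the share was 11.1% in sgPKA and 15.1% in sgALKBH5, against 11.3% and 8.75% in the controls.

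**Figure D3:**
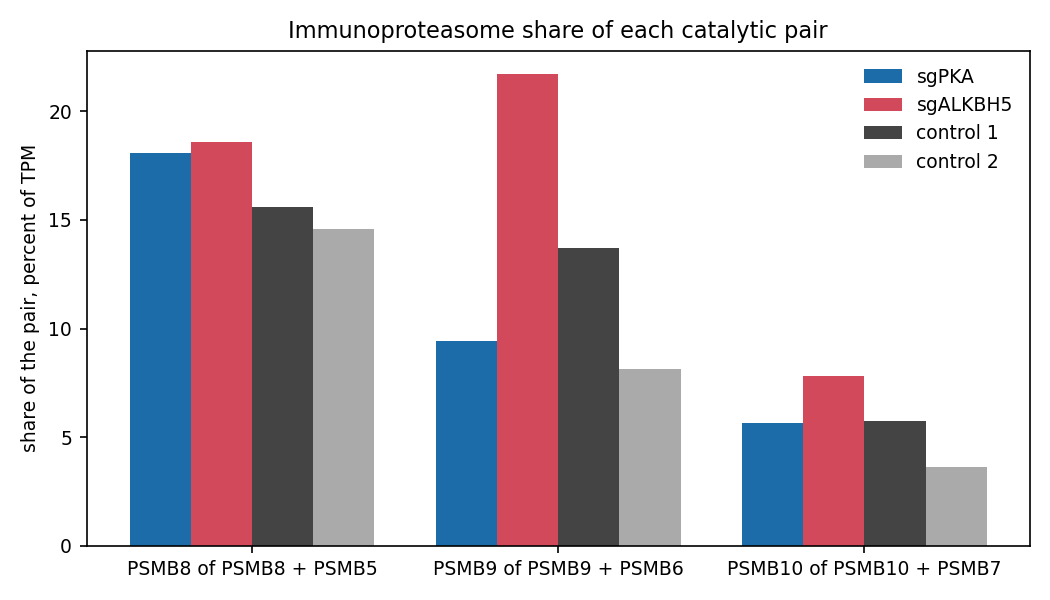
Share of each catalytic pair taken by the immunoproteasome gene, in percent of the TPM of the pair (vertical axis, from 0), in sgPKA, sgALKBH5, control 1 and control 2, 1 bar per library. The PSMB9 share in sgALKBH5, 21.7%, is the tallest bar, and the PSMB10 share in control 2, 3.64%, the shortest.

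PA28 alpha and beta, encoded by PSME1 and PSME2, assemble into 1 ring, and their transcripts were close to even. The ratio of PSME1 to PSME2 in TPM was 0.951 in sgPKA and 1.08 in sgALKBH5, against 1.07 and 1.02 in the controls. In sgPKA the expected count per TPM was 90.2% of the control mean for PSME2 and 98.0% for PSME1, so this ratio depends on the unit. The other activators did not share the order of PSME1 and PSME2 among the libraries. PSME3, which encodes the nuclear PA28 gamma, was at 284.5 TPM in sgPKA and 242 TPM in sgALKBH5, against 263.5 and 257.5 TPM in the controls. On normalised counts PSME3 was at 396 CPM in sgPKA, between the controls at 398 and 395 CPM, and at 369 CPM in sgALKBH5. PSME4 was at 24.0 TPM in sgPKA and 16.6 TPM in sgALKBH5, against 17.6 and 16.9 TPM in the controls. PSME1 and PSME2 together made up 45.6% of the TPM of the 4 activator genes in sgPKA and 63.7% in sgALKBH5, against 56.4% and 47.9% in the controls.

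PSMF1, which encodes PI31, a proteasome-binding protein named for its inhibition of the 20S core in vitro, had the largest difference below the controls among all members in sgALKBH5. It was at 91.6 CPM in sgALKBH5, against 131 and 138 CPM in the controls. The log2 fold change was -0.56 ± 0.21 (SE), and the adjusted p of edgeR's test was 0.998. In sgPKA it was at 143 CPM, above both controls.

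Among the constitutive subunits, all 7 beta ring members and all 6 ATPases were below both controls in sgPKA on normalised counts. Over all 46 members, 10 lay above and 32 below both controls in sgPKA, against 38.6% above and 37.8% below among all genes tested. PSMB5, the site of chymotrypsin-like activity, was at 163 CPM in sgPKA, against 233 and 242 CPM in the controls, with a log2 fold change of -0.54 ± 0.21 (SE) and an adjusted p of 0.527 in edgeR's test. PSMB7, the site of trypsin-like activity, was at 195 CPM in sgPKA, against 247 and 279 CPM in the controls, with a log2 fold change of -0.43. PSMB6, the site of caspase-like activity, was at 82.6 CPM in sgPKA, against 94.6 and 102 CPM in the controls, with a log2 fold change of -0.25. The beta ring differences from the control mean lay between -0.54 and -0.25 in log2(CPM + 1), with a median of -0.42. On TPM as deposited the counts changed to 16 above and 17 below, against 48.6% and 27.4% of all genes tested. With the median of all genes subtracted from TPM they were 11 above and 27 below, against 38.5% and 39.0%. The beta ring kept 6 of 7 below both controls on deposited TPM and 7 of 7 after the median was subtracted. The ATPases had 2 of 6 and 4 of 6 below on these scales, so their position depends on the scaling.

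Beyond the catalytic and PA28 genes, the ATPase PSMC3 was farthest below the controls in sgPKA, at 182 CPM against 275 and 257 CPM. PSMB3, a non-catalytic beta subunit, was at 157 CPM in sgPKA, against 193 and 244 CPM in the controls. PSMD3, a structural subunit of the 19S lid, was at 245 CPM in sgPKA, against 317 and 354 CPM in the controls. All 3 values lay below both controls. For PSMB3 the controls were 0.335 apart in log2(CPM + 1), while sgPKA minus control 1 was -0.299. The non-ATPases as a group were split, with 6 of 14 above and 7 of 14 below both controls and a median difference of -0.02. PSMD12, a lid subunit, was at 87.3 CPM in sgPKA, against 69.7 and 72.0 CPM in the controls. PSME4 was at 84.8 CPM in sgPKA, against 68.5 and 69.2 CPM in the controls. PSMD5, an assembly chaperone of the 19S base, was at 34.3 CPM in sgPKA, against 29.3 and 24.7 CPM in the controls. These 3 were the members farthest above the controls in sgPKA.

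PSMD5 differed between its deposited units. In TPM it was at 33.5 in sgPKA and 19.01 in sgALKBH5, against 16.4 and 13.0 in the controls, and its difference in sgPKA was 1.14 in log2(TPM + 1), against 0.34 in log2(CPM + 1). Its expected count per TPM was 62.0% of the control mean in sgPKA and 88.1% in sgALKBH5, a ratio that moves with the transcript length used for the gene. PSMB9 had 88.1% in sgPKA, and the other members were within 10% of the control mean in every library.

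**Figure D4:**
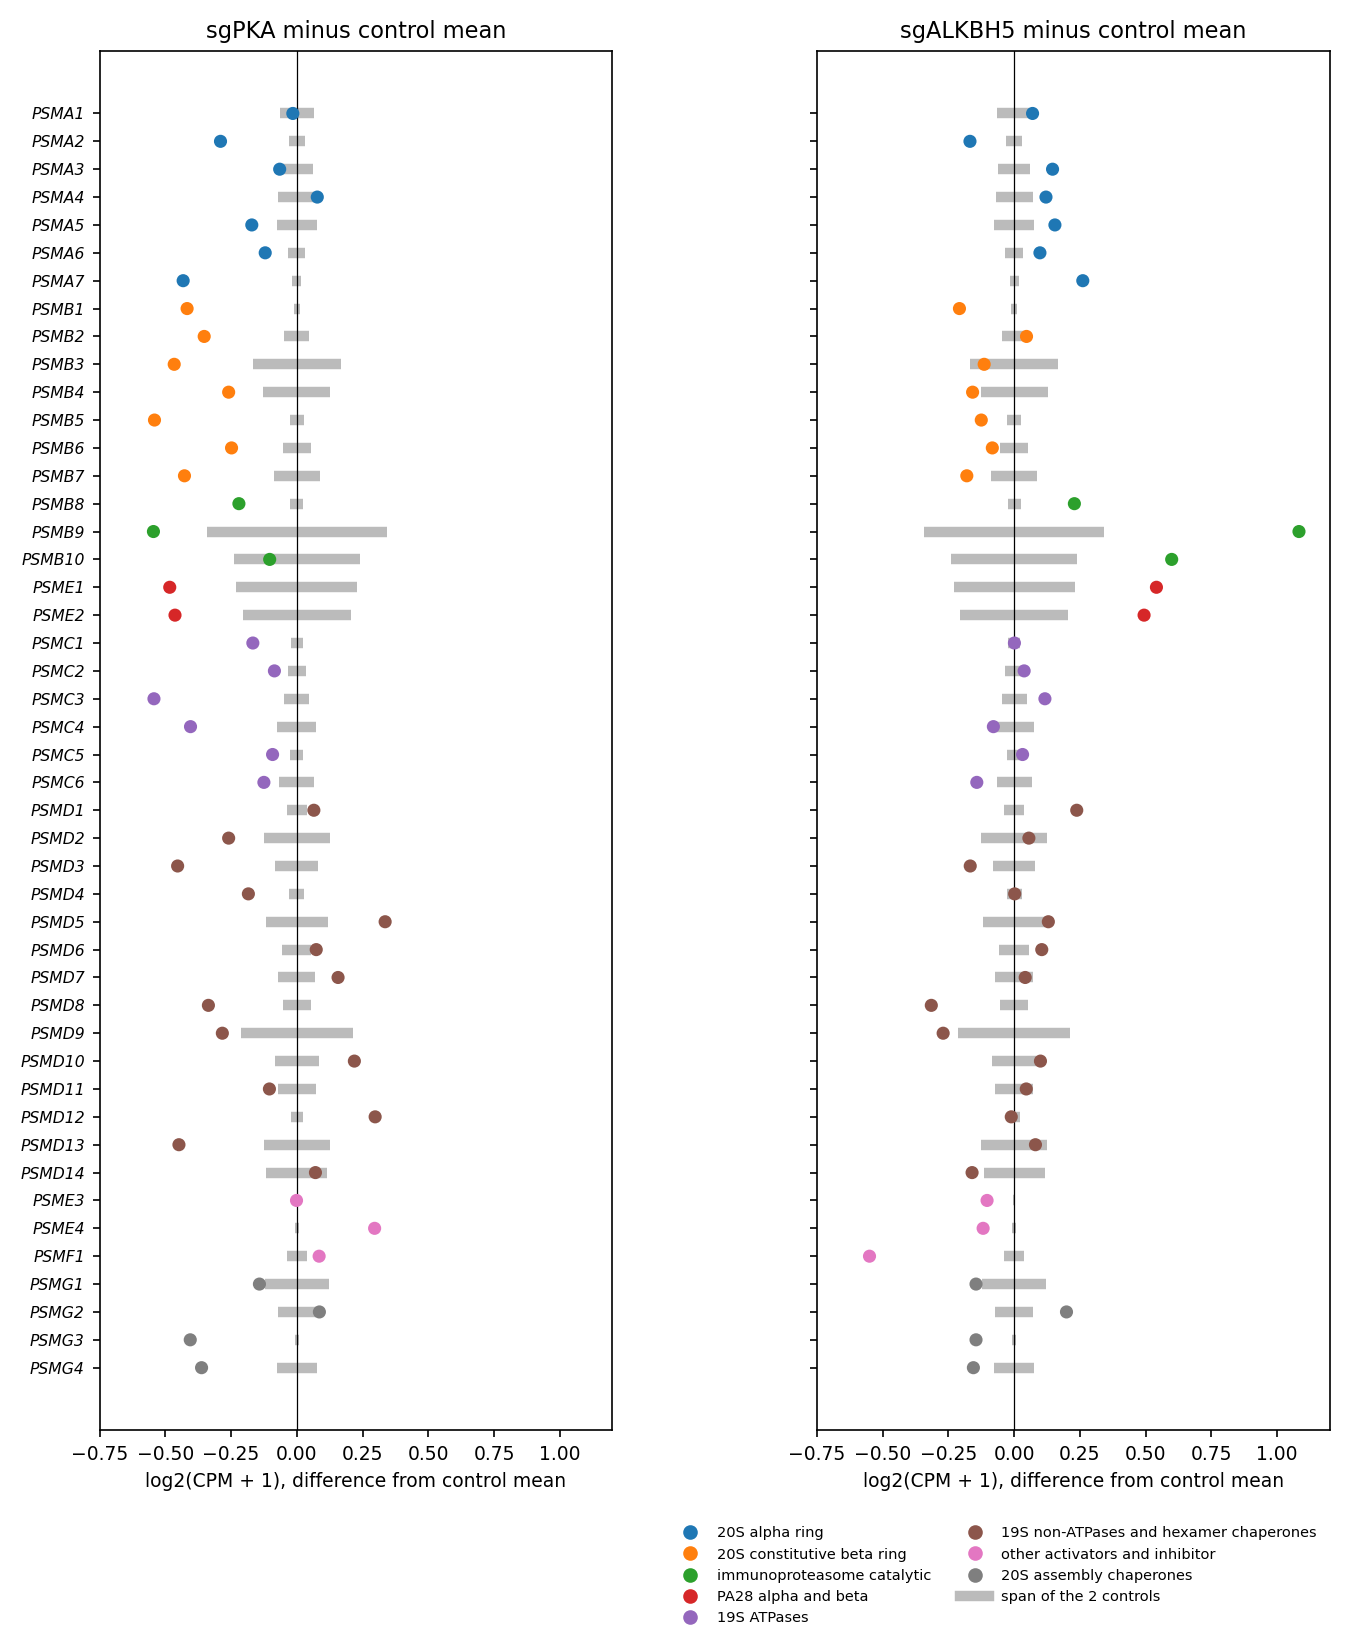
Difference of sgPKA (left) and sgALKBH5 (right) from the control mean in log2(CPM + 1) (horizontal axis) for the 46 members that passed the filter, coloured by role. Grey bars span the 2 controls around their mean: the constitutive beta ring and ATPase points lie left of their bars in sgPKA, and the immunoproteasome and PA28 points lie right of theirs in sgALKBH5.

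In sgALKBH5, 19 of the 46 members lay above and 18 below both controls, against 33.5% and 33.4% of all genes tested. On TPM as deposited they were 25 above and 15 below, against 39.2% and 27.1%, and with the median of all genes subtracted 20 above and 16 below, against 33.4% and 33.5%. By role, 6 of 7 alpha ring members were above both controls, with a median difference of 0.12, while 5 of 7 constitutive beta members were below, with a median of -0.13. Without control 2 the alpha median was 0.065, and the beta median was -0.22 without control 1 and -0.03 without control 2. PSMA7, the alpha subunit with the highest level, was at 299 CPM in sgALKBH5, against 246 and 252 CPM in the controls. PSMD1, a scaffold of the 19S base, was at 165 CPM in sgALKBH5, against 143 and 136 CPM in the controls. PSMG2, an assembly chaperone of the alpha ring, was at 48.4 CPM in sgALKBH5, against 39.9 and 44.3 CPM in the controls. PSMD8, a lid subunit, was at 237 CPM in sgALKBH5, against 285 and 306 CPM in the controls. PSMD9, an assembly chaperone of the base, was at 53.5 CPM in sgALKBH5, against 55.8 and 75.2 CPM in the controls. The PSMD9 value was closer to control 1 than the controls were to each other. PSMA7 in sgPKA was on the other side of the controls, at 185 CPM, so that it stood at a ratio of 0.618 to sgALKBH5.

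The levels within each role spread widely. In the alpha ring, mean TPM ran from 67.7 for PSMA2 to 475 for PSMA7, and in the constitutive beta ring from 91.2 for PSMB2 to 646 for PSMB4. The ATPases ran from 47.2 TPM for PSMC6 to 334 TPM for PSMC3, and the non-ATPases from 20.5 TPM for PSMD5 to 917 TPM for PSMD2. The chaperones of 20S assembly ran from 39.1 TPM for PSMG4 to 88.6 TPM for PSMG1, and 3 of these 4 were below both controls in each knockout, against 37.8% of all genes tested in sgPKA and 33.4% in sgALKBH5. PSMC1 has 13 pseudogenes in RefSeq, the most of any member, which could share reads with it.

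A list of 16 proteasome-associated and regulatory genes showed no common direction. All passed the filter, and 0 passed edgeR's test. In sgPKA 6 lay above and 5 below both controls, against 38.6% and 37.8% of all genes tested, and in sgALKBH5 6 lay above and 3 below, against 33.5% and 33.4%. ADRM1, the ubiquitin receptor of the 19S base, was at 330 TPM in sgPKA and 673 TPM in sgALKBH5, against 438 and 427 TPM in the controls. VCP, the segregase that delivers substrates to the proteasome, was at 292 TPM in sgPKA and 377 TPM in sgALKBH5, against 354 and 286 TPM in the controls. On normalised counts VCP lay below both controls in sgPKA, with a log2 fold change of -0.33 ± 0.22 (SE).

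Most genes of class I presentation lay above both controls in sgALKBH5, as the interferon-inducible subunits did. Of 18 listed genes, 15 lay above and 0 below both controls in sgALKBH5, against 33.5% and 33.4% of all genes tested, with a median log2 difference of 0.43. In sgPKA 3 lay above and 7 below, against 38.6% and 37.8% of all genes tested, with a median of -0.15. The difference between control 2 and control 1 had a median of -0.47 over this list, and 0 of the 18 passed edgeR's test. TAP1, the neighbour of PSMB9, was at 45.3 TPM in sgPKA and 75.9 TPM in sgALKBH5, against 61.2 and 47.6 TPM in the controls. TAP2, the other half-transporter, was at 59.8 TPM in sgPKA and 84.0 TPM in sgALKBH5, against 77.5 and 59.9 TPM in the controls. On normalised counts TAP2 lay between the controls in sgPKA. IRF1, an interferon-induced factor that binds the response element, was at 45.4 TPM in sgPKA and 101 TPM in sgALKBH5, against 54.9 and 18.4 TPM in the controls. NLRC5, the transactivator of class I genes, was at 6.34 TPM in sgPKA and 6.63 TPM in sgALKBH5, against 5.43 and 5.25 TPM in the controls. IRF1 and both TAP genes were thus highest in sgALKBH5.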

How the data were processed

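The authors deposited 1 table with an expected count and a TPM value per gene and library. Per the submitters' processing notes, the tools were fastp 0.18.0, HISAT2 2.1.0, StringTie 1.3.1 and RSEM on GRCh38.p14; which tool made the values, the annotation release and the use of strand are not given in the sources used here. Here the expected counts were rounded and tested with edgeR 4.0.16 in R 4.3.3 (TMM normalisation, filterByExpr, quasi-likelihood test, Benjamini-Hochberg adjustment at 0.05 over 13061 genes). All 4 libraries entered 1 fit with 3 groups, leaving 1 residual degree of freedom, so the spread came from the controls and each lone knockout was assumed to vary like them. edgeR moved each gene's own spread toward the trend of all genes tested, which it weighted as 3.15 degrees of freedom. An SE or p-value thus rests more on that trend than on the gene's own controls. The biological coefficient of variation was 0.347. Standard errors (SE) of log2 fold changes are approximate. Each is the absolute log2 fold change divided by the square root of the test's F statistic. Differences and positions used log2(CPM + 1), which understates changes of low genes. Depth was 14050867 to 25937347 counts per library.

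The immunoproteasome and PA28 genes and their constitutive counterparts were always named, with the highest and lowest member of each role, the 3 members farthest above and below the controls in each knockout, and members that did not pass the filter. Of the proteasome-associated list, the 2 genes with the highest mean TPM were named, and of the class I list TAP1, TAP2, IRF1 and NLRC5; genes of the marker lists were named after their values were seen; some listed genes are not reported here. ADRM1 and VCP were those 2. The members and lists were chosen with earlier results of these data known. Alternatives used DESeq2 1.42.0, limma 3.58.1, other scalings, pseudocounts and filters, and each control left out. The script was tested on simulated data. Promoters were matched by symbol. A planned comparison of protein sequences was not made; proteins were not used here.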

Additional observations from a re-analysis of the deposited data

How the results depend on the processing

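Each result was recomputed under every alternative that could be run. The DESeq2 Wald test called 114 genes in sgPKA and 33 in sgALKBH5 against the controls and 311 between the knockouts, against 0 for edgeR, and the other edgeR and limma alternatives gave 0. Counts of called genes were not refitted with a control left out, because no residual degree of freedom remained. On log2(TPM + 1) as deposited, members above and below both controls in sgPKA were 16 and 17, against 10 and 32. On that scale the median difference in sgPKA turned to 0.023 for the members other than the interferon-inducible ones, 0.073 for the alpha ring, 0.038 for the ATPases and 0.137 for the non-ATPases (0.012 with the median of all genes subtracted, an alternative chosen after seeing the data, which gave -0.101 for the other members). In sgALKBH5 the other members had 0.066 on TPM. With a control left out, that median ran from -0.034 to -0.022 in sgALKBH5, where it was 0.001 with both, and from -0.212 to -0.132 in sgPKA, and the non-ATPases in sgALKBH5 ran from -0.007 without control 2 to 0.011 without control 1. The cause was not tested.

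The PSMB9 share in sgPKA minus the controls was 1.303 percentage points without control 1 and -4.26 without control 2. For the PSMB10 share it was 2.01 and -0.11. Members at least 2-fold above the controls in sgALKBH5 were 1, PSMB9, without control 1 and 0 without control 2. The log2 fold change of PSMB10 in sgPKA turned to 0.075 with limma on log2(TPM + 1) and 0.079 on log2(TPM + 0.1), and was 0.136 without control 1 and -0.342 without control 2. For the 8 catalytic and PA28 genes, 109 of 112 values kept their direction, those without a control having no test. No paired analysis was possible because each knockout has 1 library.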

Other observations

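The table also held 4 repeated rows of member symbols, which were not used above. The repeated PSMA2 row (ENSG00000256646) was at 8.33 TPM in sgPKA and 11.5 TPM in sgALKBH5, against 6.74 and 7.89 TPM in the controls. The repeated PSMB10 row (ENSG00000261884) was at 1.76 TPM in sgPKA and 0.929 TPM in sgALKBH5, against 1.65 and 1.58 TPM in the controls. Reads of overlapping loci cannot be told apart from these values. The 48 members lie on 17 chromosomes, with 8 on chromosome 14 and 7 on chromosome 17. DDI2, the protease that activates the proteasome gene regulator NFE2L1, had a log2 fold change of 0.67 in sgPKA with a standard error of 0.26 and an adjusted p of 0.527 in edgeR's test, and NFE2L1 itself one of 0.05 with a standard error of 0.24. Both were named after their values were seen.

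Among the class I genes, only HLA-B exceeded each control at least 2-fold in sgALKBH5. It was at 19.9 TPM in sgPKA and 73.6 TPM in sgALKBH5, against 29.9 and 15.6 TPM in the controls. B2M, the shared light chain of class I molecules, was at 1086 TPM in sgPKA and 1610 TPM in sgALKBH5, against 1039 and 644 TPM in the controls. On normalised counts B2M lay between the controls in sgPKA. The keratin genes KRT8 and KRT18 were below both controls in both knockouts. KRT8 was at 209 TPM in sgPKA and 395 TPM in sgALKBH5, against 686 and 546 TPM in the controls. HLA-B, B2M and the keratins were chosen after their values were seen.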
